A study of Mus musculus with 4 samples.

Results

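Different pairs of small interfering RNAs (siRNAs) against the same target genes, Etv4 and Etv5, were compared by the accessible chromatin regions found after each of them. FAIRE-seq, which sequences the DNA that crosslinked protein leaves free, had been carried out in EpRas cells, mouse mammary gland epithelial cells (EpH4) that carry active H-Ras. The 2 groups compared were EpRas cells transfected with siEtv4/5 set 1 or with siEtv4/5 set 2, both given TGF-β (TGF-β3) at 1 ng/ml for 4 days. Cells given a control siRNA (siControl), either with the same TGF-β treatment or untreated, served only to place the regions that differed, and the active H-Ras is common to all 4 libraries. Each group was 1 library with 1 list of FAIRE-positive regions, so no difference could be set against a spread between replicates, no p-value was computed, and the intervals below are 95% intervals for counting error only. Since set and library are the same thing here, the siRNA set, the culture and the library cannot be told apart.

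Members were taken at equal list length. Each list was ranked by the significance of its regions (-log10 q), and the 14925 highest of the 22516 regions of set 1 were set against all 14925 regions of set 2. Regions that overlapped by at least 1 bp counted as shared. Merged over both lists, there were 19696 regions, out of 88442 entries in the 4 deposited lists. The last set 1 region kept had a -log10 q of 11.45, with a fold enrichment of 6.17 and 25 fragments at its summit, and the next one, left out, had 11.44, 7.30 and 20 fragments. The lowest region of set 2 had a -log10 q of 4.52, a fold enrichment of 4.25 and 15 fragments. The estimated depth was between 15.3 and 20.7 M reads in the 4 libraries, with set 2 the deepest at 1.2 times the depth of set 1, and the fewest fragments under any called summit were between 10 and 12, so that absence from a list means only that the call was not reached at this depth.

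ETS factors bind DNA around a GGAA core. Etv4 and Etv5 belong to the PEA3 subfamily of this family and are switched on by Ras-ERK signalling. AP-1 factors, dimers of Fos and Jun proteins, bind the sites that mark many enhancers of epithelial and Ras-transformed cells and are often found beside ETS sites. CTCF holds chromatin loops and boundaries and keeps its sites accessible in most cell types. The siRNAs act on transcripts, and no RNA was measured here, so the depth of either knockdown is not known from these libraries. A pair of siRNAs with different sequences differs in its partial matches to other transcripts, mainly through the seed at bases 2 to 8 of the strand that is used, which is why a second set is used as a control of specificity.

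The sequence of 1 of the 4 targeting siRNAs, the Etv5 siRNA of set 2, is written in the sample labels, and it is shown with its target because it is a defined difference between the sets. The 25 bases are antisense to Etv5. Their complement lies at chr16:22392674-22392698 (mm10), in a coding exon of Etv5 (minus strand) that both annotated basic transcripts hold, and no other annotated gene held the complement. Capitals mark the seed in the siRNA and its match in the target.
Etv5 siRNA of set 2: uUAAAUUCcaugccucggccagucc
Etv5 target site: ggactggccgaggcatgGAATTTAa

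The 7 accessible sites shown next divide the sets. They are given as 200 bases around the summit on the plus strand of mm10, with matches to the motifs searched in capitals. The intronic site of Dcdc2a, a doublecortin-domain gene, and the intergenic site near Gm22208 were called with set 1 and not with set 2 and hold AP-1 matches (TGAGTCA or TGACTCA). The intronic site of Srcin1, which encodes an inhibitor of Src kinase, was also called with set 1 alone of the sets and holds matches to the complement of the RUNX motif TGTGGTT. The site near Gm48256 was called with set 2 and in no other library, and held no match. The site upstream of Wnt10a, a Wnt ligand gene, was called with set 2 alone of the sets and holds a CTCF match (a match to the core of the CTCF consensus). The Etv4 and Etv5 sites are those of the target genes themselves that were called with 1 set and absent from the whole list of the other, an upstream site with a CTCF match for Etv4 and an intronic site with an AP-1 match for Etv5.
Dcdc2a, chr13:25085265-25085464: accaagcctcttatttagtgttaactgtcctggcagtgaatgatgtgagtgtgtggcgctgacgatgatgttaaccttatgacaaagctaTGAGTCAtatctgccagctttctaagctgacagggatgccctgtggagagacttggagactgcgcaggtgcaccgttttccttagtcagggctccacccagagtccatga
Gm22208, chr15:34571207-34571406: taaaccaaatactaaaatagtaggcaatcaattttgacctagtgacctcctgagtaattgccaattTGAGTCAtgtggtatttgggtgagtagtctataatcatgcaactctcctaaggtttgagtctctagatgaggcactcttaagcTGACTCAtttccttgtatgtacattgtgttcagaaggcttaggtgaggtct
Srcin1, chr11:97563733-97563932: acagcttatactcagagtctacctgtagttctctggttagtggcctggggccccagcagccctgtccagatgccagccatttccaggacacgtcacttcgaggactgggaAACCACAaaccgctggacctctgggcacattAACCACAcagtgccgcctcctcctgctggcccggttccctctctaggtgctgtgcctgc
Gm48256, chr9:25041728-25041927: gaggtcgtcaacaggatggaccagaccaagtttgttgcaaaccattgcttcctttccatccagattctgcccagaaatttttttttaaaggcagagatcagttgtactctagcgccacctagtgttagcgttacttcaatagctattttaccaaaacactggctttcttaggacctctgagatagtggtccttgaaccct
Wnt10a, chr1:74787920-74788119: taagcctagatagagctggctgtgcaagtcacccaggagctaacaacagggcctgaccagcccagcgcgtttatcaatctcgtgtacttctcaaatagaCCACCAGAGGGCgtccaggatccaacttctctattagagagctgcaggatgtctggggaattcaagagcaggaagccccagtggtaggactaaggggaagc
Etv4, chr11:101813366-101813565: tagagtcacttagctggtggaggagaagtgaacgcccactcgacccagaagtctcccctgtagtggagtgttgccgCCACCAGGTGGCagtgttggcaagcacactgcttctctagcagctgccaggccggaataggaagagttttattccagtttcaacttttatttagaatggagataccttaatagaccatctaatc
Etv5, chr16:22389248-22389447: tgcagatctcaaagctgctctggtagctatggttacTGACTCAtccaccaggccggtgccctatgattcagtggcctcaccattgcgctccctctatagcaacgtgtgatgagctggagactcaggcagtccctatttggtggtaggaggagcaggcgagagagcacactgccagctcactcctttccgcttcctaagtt

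The sets shared about 2 in 3 of their regions at equal length. Of the 14925 set 1 regions, 10085 (67.6%, 66.8 to 68.3) overlapped a set 2 region. The regions of 1 list only were 4840 for set 1 (32.4%, 31.7 to 33.2) and 4777 for set 2 (32%, 31.3 to 32.8), nearly equal since both lists had the same length. Their standing in the other list differed. Of the set 2-only regions, 2448 were called by set 1 too, below the length limit, and 2329 (15.6%, 15.0 to 16.2) overlapped nothing in the whole set 1 list. In the whole lists, set 1-only regions numbered 9965 (44.3% of the set 1 list) and set 2-only regions 2329 (15.6% of the set 2 list).

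Sharing followed rank in both lists. Each list was divided into 10 ranks of equal size. In rank 1, the most significant, 95% (93.8 to 96.0) of set 1 regions were shared, against 45.0% (42.5 to 47.6) in rank 9 and 49.7% (47.2 to 52.3) in rank 10. In set 2 the share went from 95.4% (94.2 to 96.3) in rank 1 to 48.3% (45.8 to 50.9) in rank 10. The rank 10 regions of set 2 were nevertheless found in the whole set 1 list in 75.8% of cases, and those of rank 1 in 98.0%. The median summit held 37 fragments in rank 1 of set 1 and 21 in rank 10, against 32 and 16 in set 2.

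**Figure D1:**
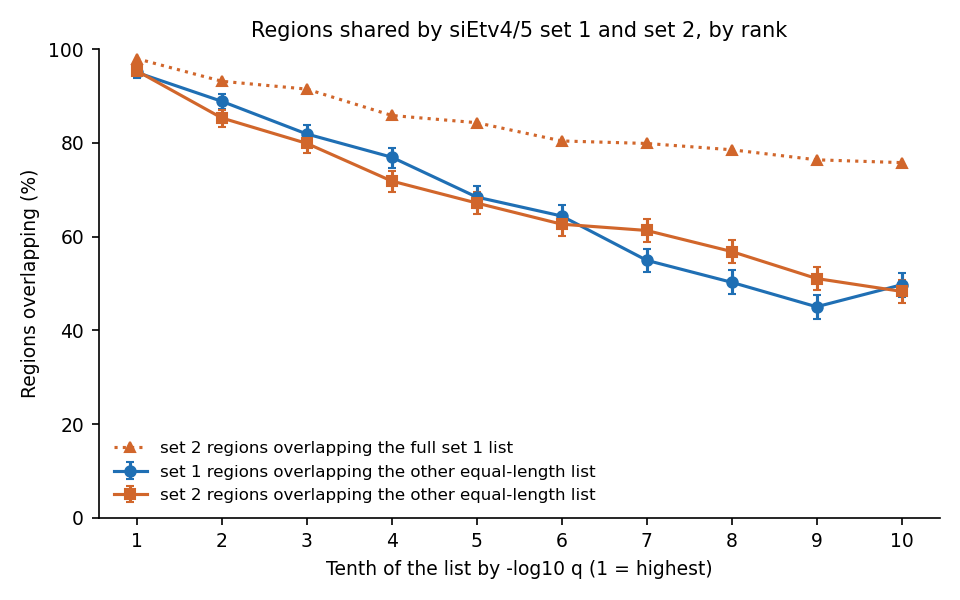
Share of regions overlapping the other equal-length list (%, 95% Wilson intervals) by rank of significance in 10 equal parts, with 1 the most significant, for each siRNA set. Both lists go from 95% and 95.4% in rank 1 to 49.7% and 48.3% in rank 10. The dotted line is the share of set 2 regions overlapping the whole set 1 list, 98.0% in rank 1 and 75.8% in rank 10.

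Regions of 1 set only were weaker and narrower than shared ones. The median fold enrichment was 8.93 in shared regions (set 1 values), 8.44 in set 1-only regions and 6.77 in set 2-only regions. By set 2 values, shared regions had a median fold enrichment of 7.39. In summit fragments per M reads, their set 2 median was 1.11, against 0.97 in set 2-only regions. Median summits of shared (set 1 values), set 1-only and set 2-only regions held 27, 22 and 20 fragments. Median widths were 232, 173 and 149 bp, in the same order. The siControl lists were next used to ask whether these regions were particular to knockdown, first as whole lists, which are longer than 14925 regions. Of the shared regions, 96.9% (96.6 to 97.2) were called in TGF-β-treated siControl cells, against 78.2% (77.1 to 79.4) of set 1-only and 74.6% (73.3 to 75.8) of set 2-only regions. Untreated siControl cells held 90.6%, 59.5% and 59.8% of them. Found in neither siControl library were 1.36% (1.15 to 1.60) of shared, 14.7% (13.7 to 15.7) of set 1-only and 16.9% (15.9 to 17.98) of set 2-only regions. With the siControl lists also held to 14925 regions, TGF-β-treated siControl cells held 81.1% of shared, 42.7% of set 1-only and 37.1% of set 2-only regions, and untreated cells 76.5%, 39.9% and 38.8%. Whether most regions of 1 set only had a call in a given siControl library therefore depended on the length of its list. The share called in neither whole siControl list was 27.7% (25.9 to 29.5) among the 2329 regions absent from all of set 1, and 6.66% (5.74 to 7.72) among the 2448 that set 1 called lower down.

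Region classes separated shared regions from the rest far more than they separated the sets. A promoter here is a region with its middle within 2 kb of a transcription start site (TSS), and it is CpG-rich if it has a GC content of at least 50% and an observed to expected CpG ratio of at least 0.6. CpG-rich promoters, typical of broadly active genes, made up 34.5% (33.6 to 35.4) of shared regions, 19.4% (18.4 to 20.6) of set 1-only and 17.9% (16.9 to 19.1) of set 2-only regions. The difference between the sets was 1.502 points (-0.06 to 3.06). CpG-poor promoters, more often those of tissue-restricted genes, made up 12.3%, 13.6% and 14.3%. Promoters of all kinds made up 46.8%, 33.1% and 32.2%, with 0.88 points (-0.99 to 2.76) between set 1-only and set 2-only regions. Regions in introns made up 27.2%, 34.1% and 33.7%, intergenic regions 24.3%, 30.7% and 32.0%, and regions over 50 kb from a TSS 6.65%, 9.11% and 8.62%. Promoters nearest a long non-coding RNA start made up 5.03%, 4.19% and 4.92%. For each of these classes, the interval of the difference between set 1-only and set 2-only regions held 0.

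This depended on strength. Among regions of 1.2 to 1.4 summit fragments per M reads (FPM), promoters made up 33.2% of set 1-only and 38.4% of set 2-only regions. From 1 to 1.2 FPM the shares were 25.2% (23.0 to 27.5) and 38.1% (35.5 to 40.7), and from 1.4 FPM upwards 40.3% and 35.4%. The lists reached down to different strengths, since set 2 was kept whole. Of the set 2-only regions, 2847 of 4777 were under 1 FPM, and 0 of the set 1 regions kept were.

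Motifs were counted on both strands in the 500 bp around the middle of distal regions, that is regions outside promoters, of which 5363 were shared, 3239 in set 1 only and 3239 in set 2 only. An AP-1 site lay in 59.2% (57.8 to 60.5) of shared distal regions, 45.9% (44.2 to 47.6) of set 1-only and 44.4% (42.7 to 46.1) of set 2-only ones, against 51.5% of all distal regions of both lists. The sets differed by 1.54 points (-0.88 to 3.96). Set 2-only regions absent from the whole set 1 list held an AP-1 site in 37.5% (35.1 to 39.9) of cases, 8.42 points (5.47 to 11.3) under set 1-only regions.

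For ETS sites (CGGAAGT or AGGAAGT), the motif class of the siRNA targets, the sets differed. They lay in 16.8% (15.5 to 18.1) of set 1-only and 20.3% (18.9 to 21.7) of set 2-only distal regions, a difference of -3.46 points (-5.35 to -1.57), where all distal regions stood at 19.8% and shared ones at 21.4%. Set 1-only regions were thus the lower group. Against the set 2-only regions absent from the whole set 1 list, which held an ETS site in 19.4% of cases, the difference was -2.58 points (-4.95 to -0.28). With the whole lists it was -1.41 points (-3.61 to 0.67), an interval that held 0, and so did the intervals at 1.2 to 1.4 FPM (-4.07 points, -9.63 to 0.83) and from 1.4 FPM upwards (-5.78 points, -15.1 to 1.874). The longer site CCGGAAGT lay in 0.648% of set 1-only and 1.23% of set 2-only regions. An ETS site with an AP-1 site in the same window was found in 12.4% of shared, 7.97% of set 1-only and 9.17% of set 2-only regions, and an ETS site alone in 8.99%, 8.83% and 11.1%.

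CTCF sites ran the other way. They were rarest in shared distal regions, at 8.33% (7.62 to 9.10), and lay in 16.8% (15.6 to 18.2) of set 1-only and 14.2% (13.1 to 15.5) of set 2-only regions, with 12.3% of all distal regions holding one. Set 1-only regions exceeded shared ones by 8.49 points (7.02 to 10.0) and set 2-only regions by 2.59 points (0.83 to 4.36). The order of the sets was not stable. Set 2-only regions absent from all of set 1 held a CTCF site in 18.9% (17.1 to 20.9) of cases, with set 1-only regions -2.10 points (-4.46 to 0.17) from them, while those that set 1 called lower down held one in 9.70% (8.37 to 11.2). CTCF regions had a median summit of 23 fragments in shared, 21 in set 1-only and 19 in set 2-only regions. Intronic and intergenic regions as a whole had 26, 22 and 19, so CTCF regions were weaker mainly among shared regions. CTCF regions carried an AP-1 site in 28.0%, 13.8% and 15.2% of cases. Within set 1-only regions the CTCF share was 24.5% at 1 to 1.2 FPM, 15.9% at 1.2 to 1.4 FPM and 9.13% from 1.4 FPM upwards, and within set 2-only regions 12.6%, 11.3% and 10.6%.

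Intervals for the 12 motifs were not adjusted for their number. RUNX sites lay in 18.5% of shared, 15.6% of set 1-only and 17.2% of set 2-only distal regions, against 17.3% of all. TEAD sites (ACATTCC), bound by the partners of YAP and TAZ, lay in 13.44%, 11.5% and 12.8%, against 12.7% of all. For both, the interval of the difference between the sets held 0. Sites of the Grainyhead-like factors (AACCNGTT), which keep epithelial enhancers open, lay in 3.71%, 3.49% and 4.51%, with -1.02 points (-1.98 to -0.06) between set 1-only and set 2-only regions, and reached 5.66% (4.63 to 6.91) in set 2 regions absent from all of set 1. A site of interferon regulatory factors lay in 6.58%, 7.04% and 7.90%.

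**Figure D2:**
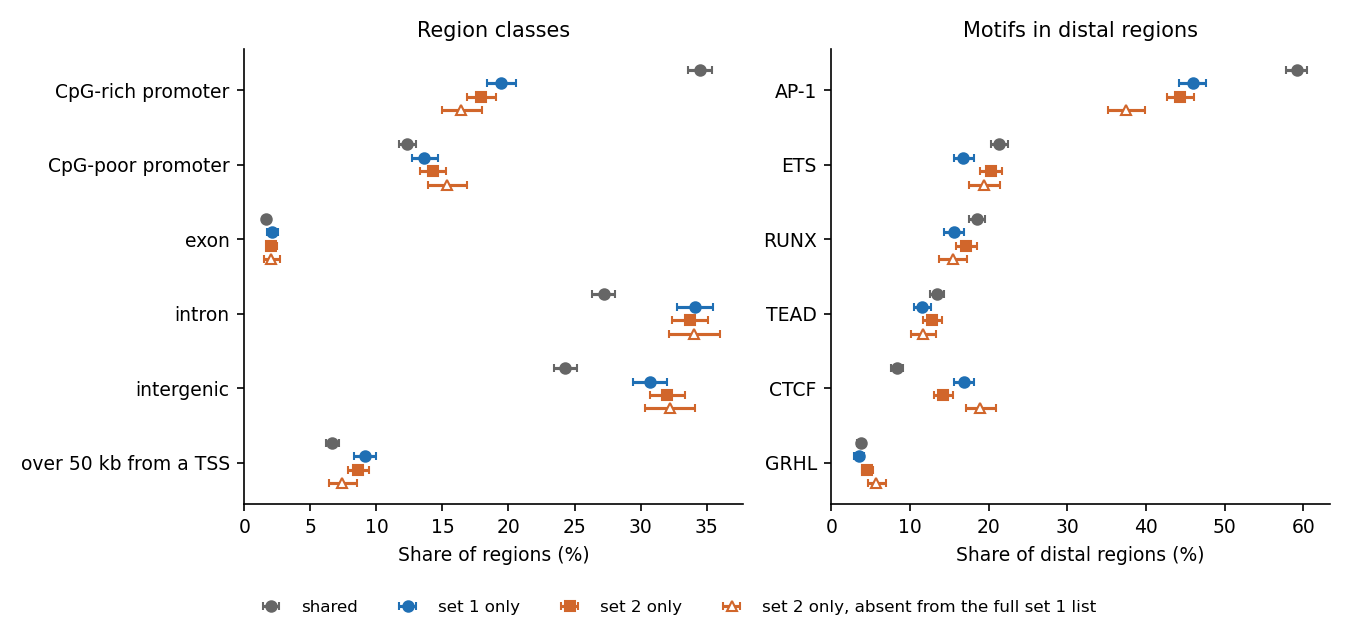
Shares (%, 95% Wilson intervals) of region classes among all regions and of motifs among distal regions, for shared, set 1-only and set 2-only regions at equal list length. Open triangles are the set 2-only regions absent from the whole set 1 list. Shared regions stand apart for CpG-rich promoters (34.5%), AP-1 (59.2%) and CTCF (8.33%). Set 1-only and all set 2-only regions stand apart most for ETS (16.8% and 20.3%). The open triangles stand furthest from set 1-only regions for AP-1 (37.5% and 45.9%).

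At shared regions, set 2 was lower almost throughout. Over 10079 pairs of overlapping regions, the median log2 ratio of fold enrichment, set 2 over set 1, was -0.27 (quartiles -0.45 and -0.09), and 85.5% of pairs were lower with set 2. On the FPM scale the median was -0.49 and 95.4% were lower. The set 1 list was cut at a -log10 q of 11.45, while set 2 reached down to 4.52. A pair thus had to be strong with set 1 but could be weak with set 2. With the whole lists the median log2 ratio of fold enrichment was -0.21 (quartiles -0.40 and -0.02). At equal length, the shift was much the same in every class. The median log2 ratio of fold enrichment was -0.26 in promoters and -0.29 in distal regions, -0.30 in distal regions with an AP-1 site and -0.27 without one, -0.28 with an ETS site and -0.29 without, and between -0.26 and -0.29 in 4 equal groups by GC content. Distal regions with a CTCF site shifted slightly less, at -0.24 against -0.29 without one. The following values are therefore read relative to the median.

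**Figure D3:**
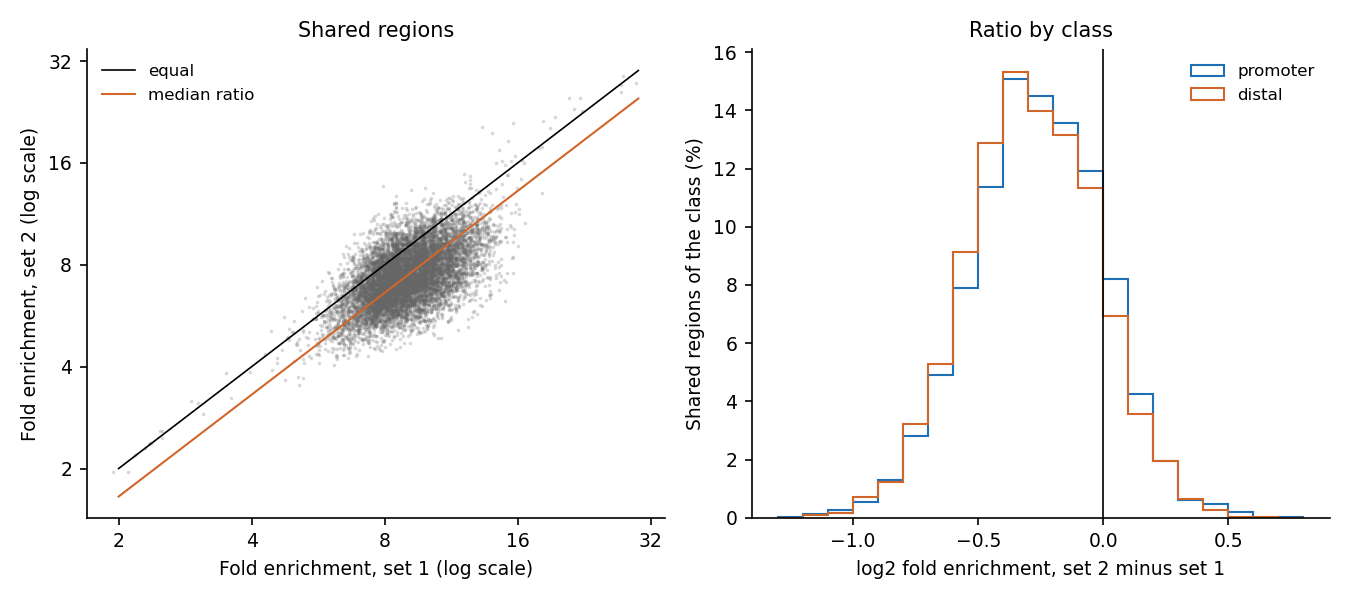
Left, fold enrichment of each shared region with set 1 (x) and set 2 (y), both on a log scale, with lines of equality and of the median ratio. Right, histogram of the log2 ratio of fold enrichment, set 2 minus set 1, as a share (%) of shared promoters and shared distal regions, with medians of -0.26 and -0.29.

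The shift of fold enrichment, though not of FPM, was near 0 in the nuclear regions of very high signal, a grouping chosen after the values were seen. In bins of the mean FPM of both libraries below 3, the median log2 ratio of fold enrichment ran from -0.33 to -0.27. In the 52 regions of 3 FPM or more it was -0.02, with 30 of 52 lower with set 2 and a range from -0.53 at Hjurp, a centromeric histone chaperone gene, to 0.28. Repeats covered over 50% of the sequence in 25 of these 52, beside 1.06% of all shared regions. An AP-1 site lay in 7 of them (13.5%), promoters and distal regions together. Counted in the same way, the bins below 3 FPM held one in 33.2% to 39.4% of regions. On the mitochondrial chromosome the median log2 ratio of fold enrichment of 7 regions was 0.01. On the FPM scale set 2 stayed lower in the 52 regions. There the median log2 ratio was -0.14, with 78.8% of the 52 lower with set 2. In the bins below 3 FPM it ran from -0.51 to -0.47. On the mitochondrial chromosome it was -0.36, with 100% lower, but summits there stood at or near the highest count of their library. The median mitochondrial summit held 268 fragments in set 1 (highest 268) and 249 in set 2 (highest 250). These heights went with the shortest region width, 134 bp in set 1 and 125 bp in set 2. Neither mitochondrial ratio can therefore be read as a difference in signal.

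Few single regions left the common shift. Relative to the median, 139 pairs (1.38%) were at least 1.5-fold lower with set 2 and 105 (1.04%) at least 1.5-fold higher. Among pairs with at least 30 fragments in either list, the largest fall was at the promoter of Tigd3, a gene derived from a transposase, with 25 fragments in untreated cells, 39 in TGF-β-treated siControl cells, 39 with set 1 and 16 with set 2. Its ratio of FPM, set 2 over set 1, was 0.343 (exact binomial interval 0.179 to 0.628). The promoter of Rad54b, a helicase gene of homologous recombination, had 38, 29, 37 and 15 fragments in the same order (ratio 0.339, 0.173 to 0.633). At both, set 2 was the one low library of the 4.

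The other 8 regions in this direction lay at the promoters of Rint1, Gm26634, Bop1 and Zfp446, and at distal sites in Itgb2, in Retreg1, near Gm11573 and near Frg2f4. Rint1 acts in transport between the Golgi and the endoplasmic reticulum and had 28, 29, 35 and 17 fragments. Itgb2, the integrin β chain of leukocytes, had an intronic region with 23, 31, 34 and 17 fragments. The log2 ratio of fold enrichment over the 10 ran from -1.25 to -1.11, or from -0.98 to -0.84 relative to the median. The 10 largest rises ran from 0.53 to 0.79, or from 0.80 to 1.06 relative to the median. The median ratio of FPM over all shared pairs was 0.711, and the counting interval held this ratio in 6 of the 10 falls and 2 of the 10 rises. A ratio of 1, equal FPM with both sets, lay in the interval of 0 of the 10 falls and 10 of the 10 rises. At the promoter of Zc3h3, a zinc finger gene, there were 43, 33, 19 and 36 fragments (ratio 1.58, 0.885 to 2.92), so that set 1 was the low library. At the promoter of Exoc1, a subunit of the exocyst, there were 28, 24, 20 and 40 fragments (1.67, 0.955 to 3.02). The others lay at Gm24471, Nupr1l, Rabif, Pcyt1a, Aim2, Nom1, Tpr and Chaf1a. Because the members of both groups were picked as the most extreme, these values are a description.

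The distal regions of highest significance that were called with 1 set and absent from the whole list of the other were named on each side. The 10 of set 1 held 30 to 40 fragments. At the same local background per depth, a summit was estimated to need 11 to 16 fragments for a call with set 2. The lowest summit that set 2 did call held 12. At Dcdc2a there were 22 fragments in untreated cells, 28 in TGF-β-treated siControl cells and 33 with set 1. At Srcin1 there were 35, 34 and 39. In these cases set 2 was the only library without a call, and the same held for 8 of the 10. Of all 4840 set 1-only regions, promoters included, TGF-β-treated siControl cells held 78.2% and untreated cells 59.5%. Found in neither whole siControl list were 14.7%. The region near Gm22208, with 2 AP-1 sites, had 32 fragments in TGF-β-treated siControl cells and 36 with set 1 and was not called in untreated cells. The region near Ccdc190 had 21 fragments in untreated cells and 34 with set 1 and was not called in TGF-β-treated siControl cells. The remaining regions lay near Gm23423, in Cat, the catalase gene (20, 31 and 32 fragments), near Vapb (34, 41 and 35), near Gm11418 (15, 21 and 30), near Alkbh3 (19, 29 and 39, with 3 AP-1 sites) and near Gm24621 (22, 24 and 30). AP-1 sites were found in 6 of the 10, beside 45.9% of all set 1-only distal regions.

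On the set 2 side, the 10 distal regions held 26 to 32 fragments, where 11 to 13 would have been enough for a call with set 1. Of the 10, 5 were called in both siControl libraries, 3 in untreated cells alone and 2 in neither. Of all 2329 set 2 regions absent from the whole set 1 list, promoters included, TGF-β-treated siControl cells held 59.8% and untreated cells 48.3%. Found in neither whole siControl list were 27.7%. The 2 in neither were the region near Gm48256, with 32 fragments, and the region in an intron of Gm41307, with 30 fragments and 2 ETS sites. The 3 shared with untreated cells alone lay near Gm28465 (18 fragments untreated and 27 with set 2), near Wnt10a (20 and 26) and in Sord, the sorbitol dehydrogenase gene (19 and 27). These 3 were called without TGF-β and with set 2 under TGF-β, and neither in TGF-β-treated siControl cells nor with set 1. The other 5 lay near Gm6020, Atp6v0d2, Gm29736, Gm37439 and AU022133. AP-1 sites were found in 2 of the 10, beside 37.5% of all distal set 2 regions absent from the whole set 1 list.

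**Figure D4:**
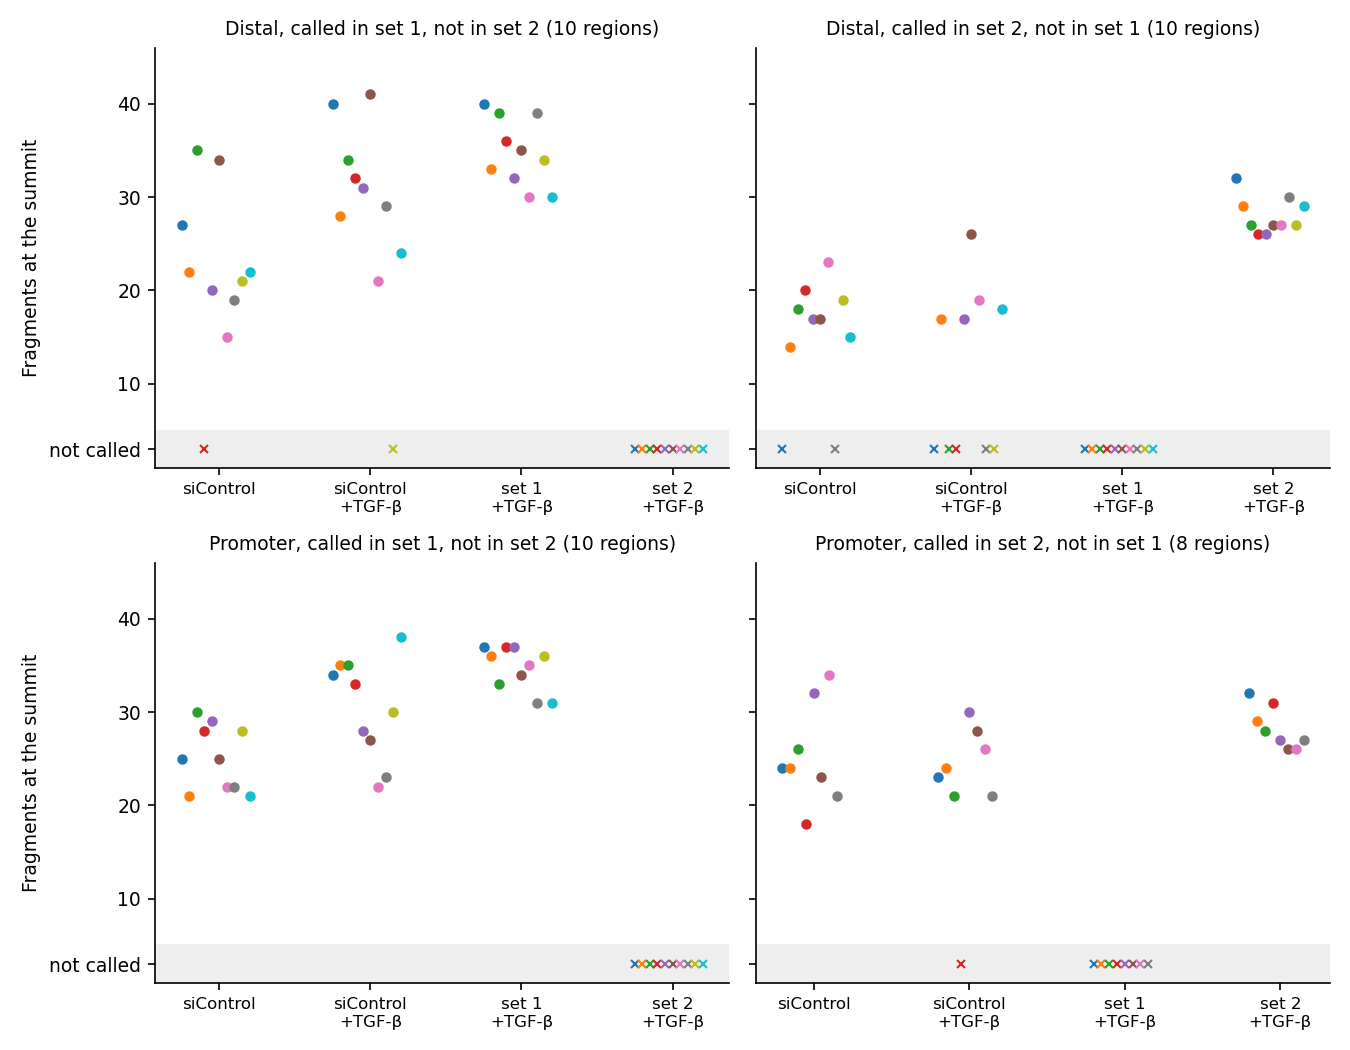
Summit fragments in each of the 4 libraries for the named distal and promoter regions of 1 set only, 1 colour a region within each panel, with crosses in the grey band for libraries without a call. Set 1-only distal regions hold 30 to 40 fragments with set 1. Both siControl libraries called 8 of these 10 and 5 of the 10 set 2-only distal regions. The members shown were picked by significance. Over all such regions, promoters included, 14.7% for set 1 and 27.7% for set 2 were in neither whole siControl list.

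Promoters were counted by gene. Of 21911 protein-coding genes, 4846 (22.1%) had a promoter region in both lists, 1208 (5.51%) in set 1 only and 1126 (5.14%) in set 2 only. Of the last, 637 had a region lower down in the set 1 list and 489 had none. Genes of 1 set only had usually been called in the whole list of TGF-β-treated siControl cells as well, in 86.9% of cases for set 1 and 82.9% for set 2, against 98.3% for genes of both lists. For the 489 genes without any set 1 promoter region this share was 71.4%.

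The 10 promoters of highest significance on the set 1 side were called in both siControl libraries in 10 of 10 cases. Over all 1208 genes of set 1 only, TGF-β-treated siControl cells called 86.9% and untreated cells 78.1%. Rccd1, a gene with a regulator-of-chromosome-condensation domain, had 25 fragments in untreated cells, 34 in TGF-β-treated siControl cells and 37 with set 1. Tango6, a transport and Golgi gene, had 21, 35 and 36. Zfp799, a zinc finger gene, had 30, 35 and 33. The others were Eya3, Eif3d, a translation initiation factor gene (29, 28 and 37), Zfp346, Il1rap, a subunit of the interleukin 1 receptor (22, 22 and 35), Taf10, a TFIID subunit gene (22, 23 and 31), Cdc42ep2 and Ddt. Set 2 would have needed 12 to 15 fragments at these promoters for a call. On the set 2 side, 10 genes shared 8 regions. Cbr4, a carbonyl reductase gene, had 24, 23 and 32 fragments in untreated cells, TGF-β-treated siControl cells and set 2. Fbxl18 had 24, 24 and 29, and Thoc5, of the mRNA export complex THO, 26, 21 and 28. The promoter of Hif1a, the hypoxia-inducible factor, had 18 fragments in untreated cells and 31 with set 2 and was not called in TGF-β-treated siControl cells. Gtf2h5 and Serac1 shared a region (32, 30 and 27), as did Isg20l2 and Rrnad1 (21, 21 and 27), and Phgdh, of serine synthesis, had 23, 28 and 26, and Dusp19 34, 26 and 26. An ETS site lay in 4 of these 8 regions and in 2 of the 10 of set 1. Motif shares were counted in distal regions only, so these counts have no share over all promoter regions beside them. No difference between the sets can be read from them.

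At the target genes, the whole lists of the sets differed in 1 region each. The promoters of Etv4 and Etv5 were called with both sets, with 35 fragments against 27 for Etv4 and 34 against 31 for Etv5 (set 1 first). A region 22.1 kb upstream of Etv4 held 38 fragments with set 1 and 27 with set 2. A region 28.1 kb upstream, the CTCF site printed above, held 16 fragments in untreated cells, 25 in TGF-β-treated siControl cells and 22 with set 2, and was not called with set 1. In an intron of Etv5, the AP-1 site printed above, 47 kb downstream of the TSS, held 17 fragments in TGF-β-treated siControl cells and 31 with set 1 (fold enrichment 8.34 and 12.9), and was not called in untreated cells or with set 2. The length limit added another difference at each gene. An intronic region of Etv4 held 18 fragments with set 1, below the limit, and 16 with set 2, and an intronic region of Etv5, 1.8 kb from the TSS, held 20 with set 1, below the limit, and 17 with set 2. At Mmp13, a collagenase gene, the 1 region called with either set held 26 fragments with set 1 and 24 with set 2.

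Lists of genes of the tissue and treatment were then counted by promoter region (called in both equal-length lists, in set 1 only, in set 2 only, or in neither). The 12 lists held 198 genes, of which 54 (27.3%) had a promoter region in both lists, 22 (11.1%) in set 1 only and 19 (9.60%) in set 2 only, beside 22.1%, 5.51% and 5.14% of all protein-coding genes. Of the 22, 19 were called in TGF-β-treated siControl cells, and of the 19, 16 were.

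Among 18 ETS factor genes, 5 had a promoter region in both lists, 1 in set 1 only and 3 in set 2 only. The set 1-only gene was Elf5, a factor of the mammary alveolar lineage, with 19 fragments and no call in any other library. On the set 2 side, Elk1, a nuclear target of ERK, had 16 fragments and no call elsewhere. Elf1 had 22 fragments in untreated cells, 15 in TGF-β-treated siControl cells and 19 with set 2. Etv1, the remaining PEA3 gene, was called with both sets, with 21 fragments in set 1, below the length limit, and 26 in set 2. By region counts over the gene body and the 50 kb upstream, 3 ETS loci had more regions with set 1 and 8 with set 2, where 18.4% of all protein-coding loci had more with set 1 and 17.4% more with set 2. The median difference in region number was 0 over all protein-coding loci and in 11 of the 12 lists, and 1 region more with set 1 in the cell cycle list.

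Among 11 AP-1 subunit genes, 5 were in both lists, 2 in set 1 only and 1 in set 2 only. The promoter of Fos had 26 fragments with set 1 and was not called in any other library. Fosb had 24 in untreated cells, 23 in TGF-β-treated siControl cells and 30 with set 1. Fosl1, the subunit typical of Ras-transformed cells, went the other way, with 37 fragments in TGF-β-treated siControl cells and 22 with set 2 and no call in the other libraries. No direction was common to the 3.

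For EMT genes, Zeb2, a repressor of E-cadherin, had 22 fragments in TGF-β-treated siControl cells and 18 with set 2 and was not called with set 1. It was the only one of 10 EMT transcription factor genes with a promoter region in 1 list only. Of 20 epithelial genes, 3 were in set 1 only, 2 in set 2 only and 0 in both. Esrp2, an epithelial splicing regulator, had 29, 29 and 24 fragments in untreated cells, TGF-β-treated siControl cells and set 1. Cldn4, a claudin of tight junctions, had 17, 30 and 27, and the keratin gene Krt18 had 17, 25 and 24. The promoter of Cdh1, which encodes E-cadherin, had 21 fragments in untreated cells and 21 with set 2 and was not called in the other libraries. Krt8 was called in every library, with 19 fragments in set 1, below the length limit, and 26 in set 2. Krt8 and Krt18 pair in the same filaments and lie side by side in the genome, and they fell on opposite sides. Among 20 mesenchymal genes, 5 were in both lists, none in set 1 only and 2 in set 2 only. These 2 were Fn1, called with both sets at 24 fragments each, and the collagen gene Col1a1, with 20 fragments in set 2 and no call elsewhere.

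Proteases and their inhibitors were in both lists for 1 gene of 18, in set 1 only for 3 and in set 2 only for 1. Mmp9, a gelatinase, had 18 fragments in TGF-β-treated siControl cells and 23 with set 1. Timp2, an inhibitor of metalloproteinases, had 23 and 23, and the serine protease gene Htra1 had 16, 23 and 20 with untreated cells first. Mmp10, a stromelysin, was called in all 4 libraries with 17 to 18 fragments and was set 2-only through the length limit. In the TGF-β pathway, 2 of 20 genes were in both lists, 2 in set 1 only and 1 in set 2 only. The receptor gene Tgfbr2 had 19 fragments in TGF-β-treated siControl cells and 19 with set 1. Ski, a corepressor of Smads, had 16, 19 and 19. Id1, a target of BMP and TGF-β signals, had 34 fragments in untreated cells, 36 in TGF-β-treated siControl cells and 25 with set 2, and no call with set 1.

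Of 18 Ras-ERK feedback genes, 6 were in both lists, 3 in set 1 only (Dusp1, Spred2 and Map2k1) and 2 in set 2 only (Spry4 and Egr1, both also called lower down in set 1). Dusp1, a phosphatase of MAP kinases, had 19, 27 and 18 fragments in untreated cells, TGF-β-treated siControl cells and set 1. The kinase gene Map2k1 had 32, 24 and 27. Of 16 cell cycle and p53 genes, 7 were in both lists, 3 in set 1 only and 0 in set 2 only. Ccnd1, which encodes cyclin D1, had 27, 30 and 30 fragments and no call with set 2. Ccne1 had 17 fragments in TGF-β-treated siControl cells and 19 with set 1, and Plk2 had 21 and 21.

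Long double-stranded RNA and some siRNAs are sensed by the interferon system, and the genes of that system were therefore counted apart. Of 20 such genes, 7 were in both lists, 4 in set 1 only and 2 in set 2 only, and 9 loci had more regions with set 1 against 2 with set 2, beside 18.4% and 17.4% of all protein-coding loci. Over the loci of all 12 lists, 48 had more regions with set 1 and 60 with set 2 at equal length, and 103 and 22 with the whole lists, of which that of set 1 is the longer. Ifit1, an antiviral effector, had 22 fragments with set 1 and no call in any other library. Ifit2 had 28, 30 and 27 in untreated cells, TGF-β-treated siControl cells and set 1. Irf7 had 23 fragments in TGF-β-treated siControl cells and 20 with set 1. Ifit2 and Irf7 were thus called in TGF-β-treated siControl cells too. Tlr3 and Irf9, the set 2-only genes, were called in all 4 libraries. Whether this list differs from other genes was not tested.

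Of 13 genes of the RNA interference machinery, 7 were in both lists, 1 in set 1 only and 2 in set 2 only. Ago2, the slicing Argonaute, had 22, 23 and 24 fragments in untreated cells, TGF-β-treated siControl cells and set 1. Dicer1 and Prkra, the set 2-only genes, were also called lower down in set 1. Of 14 housekeeping genes, 8 were in both lists, 0 in set 1 only and 2 in set 2 only. Eef1a1, a translation elongation factor gene in the set 2-only group, was called in all 4 libraries. Of 7 mammary epithelial markers, 1 was in both lists, 1 in set 1 only and 2 in set 2 only, and 3 had no promoter region in either. Krt14, a basal keratin, was the gene in both lists, with 22, 33, 25 and 20 fragments (untreated, treated siControl, set 1, set 2). Epcam was called in untreated cells alone, Cldn7 in TGF-β-treated siControl cells alone, and Krt5 in no library. Of 12 genes of blood and neural cells, taken as closed, none was in both lists. The macrophage gene Cd68 was in set 2 only and was called in all 4 libraries with 19 to 24 fragments, so the closed loci were not free of regions.

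The regions of 1 set only were unevenly spread over the chromosomes at equal length. Most autosomes had between 0.869 and 1.05 set 2-only regions for each set 1-only region. Chromosome 14 had 178 against 93 (1.91), the X chromosome 54 against 29 (1.86) and chromosome 12 226 against 166 (1.36). In the whole lists, the number of set 2 regions over set 1 regions was 0.692 on chromosome 14, 0.5 on X and 0.691 on chromosome 12, where the other autosomes ran from 0.569 to 0.744. The length limit kept 54.5% of the set 1 regions of chromosome 14, 35.1% of X and 62.2% of chromosome 12, against 56.1% on chromosome 18, where the ratio was 1.05, to 76.0% on chromosome 19 among the other autosomes. The median set 1 summit held 20 fragments on chromosome 14 and 17 on X, and between 20 and 27 on the other autosomes. The part of the length limit in the uneven spread was not tested.

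**Figure D5:**
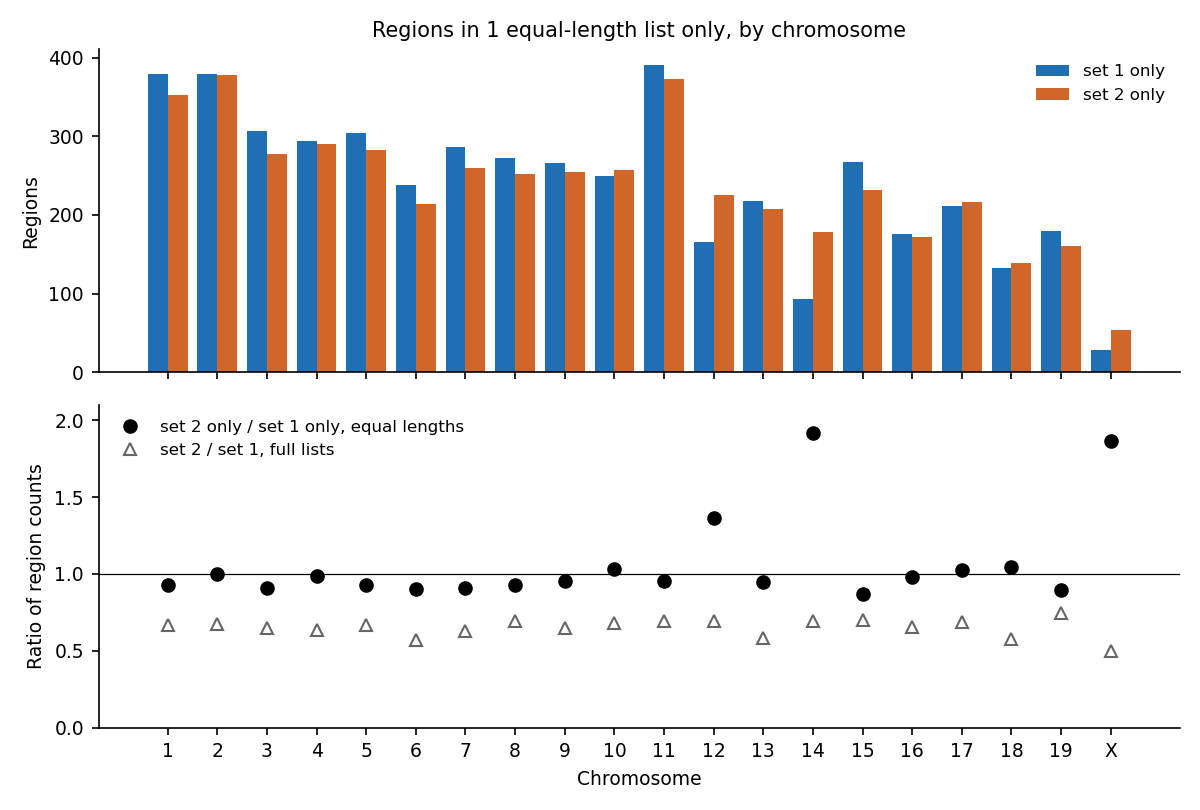
Top, number of set 1-only and set 2-only regions at equal list length on each nuclear chromosome except Y, and bottom, their ratio (filled circles) and the ratio of the whole lists (open triangles). Chromosome 14 has 178 set 2-only against 93 set 1-only regions, and X 54 against 29, while most chromosomes have similar numbers of both.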

How the data were processed

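FAIRE-seq libraries of 4 EpRas cell samples, 1 per group, were read as deposited lists of regions, and groups were taken from the labels. The authors sequenced on an Ion Proton, trimmed reads to 36 bp, mapped them to mm10 and ran MACS2 with a q-value limit of 1e-04. The submitters' processing notes name Bowtie and MACS2 2.1.0, and the study's methods name another MACS2 release. The study describes biological replicates, which may have been combined before calling. Each deposited list gives a fold enrichment (a ratio of summit signal to local background made by the authors), the authors' -log10 p-value and -log10 q-value, a score derived from the latter, and the summit position. No other column was used.

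Summit fragments and local background were solved from the deposited fold enrichment, (fragments + 1) / (background + 1), and the Poisson -log10 p-value. They came out whole, within 0.05, in 100% of regions. Depth was the genome-wide background times 1.87 Gb over the shortest width. Genes came from GENCODE M21 basic, and sequence from RefSeq's GRCm38 assembly, which is mm10. The connective tissue growth factor gene is listed as Ccn2. Loci were gene bodies plus 50 kb upstream. Shares have 95% Wilson intervals, differences of shares Newcombe intervals, and ratios of summit fragments exact binomial intervals. Overlap, motif and fragment steps were tested on simulated data. Python 3.11.15, numpy 2.4.6, pandas 2.3.3, scipy 1.17.1 and pysam 0.24.0 were used.

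Named were Etv4, Etv5 and Mmp13, the 10 most significant distal regions and 10 promoter genes called with 1 set and absent from the whole list of the other, the 10 shared regions of largest log2 ratio each way with at least 30 fragments in either list, and listed genes with a promoter region in 1 list only. The members, lists and tests were chosen with earlier results of these data known. Alternatives covered list length, ranking, overlap, promoter window, strength bins, motif window and scale. Some genes that these rules name are not reported here.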

Additional observations from a re-analysis of the deposited data

How the results depend on the processing

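Of 89 values recomputed under alternatives, 47 stayed close to the reported value, 39 moved and 3 reversed. With the whole lists, regions of set 1 only numbered 9965 and of set 2 only 2329, genes 1999 and 489, and loci of the gene lists with more regions 103 for set 1 and 22 for set 2 (48 and 60 at equal length). With the top 5000 regions of each list, 2476 and 2468 regions were in 1 list only. For set 1-only minus set 2-only regions, the whole lists gave -3.14 points for promoters, -1.41 for ETS, 9.75 for AP-1 and -5.65 for CTCF, the last a reversal. Ranking by fold enrichment gave -2.43 for promoters, -2.35 for AP-1 and 6.77 for CTCF. Bins of 1 to 1.2, 1.2 to 1.4 and at least 1.4 FPM gave -12.9, -5.26 and 4.88 for promoters, and 11.95, 4.61 and -1.45 (reversed) for CTCF. The lowest and highest of these bins gave -5.50 and -5.78 for ETS, and -6.76 and 4.88 for AP-1. The longer ETS site gave -0.59. The ETS difference was below 0 in all alternatives run, but its interval held 0 with the whole lists and in the 2 upper bins. The 2 alternatives chosen after seeing the data were set 2-only regions absent from the whole set 1 list and regions mostly of repeats left out. The former gave 8.42 for AP-1 and -2.10 (reversed) for CTCF, and the latter moved no value. For set 1-only minus shared regions, the promoter difference (-13.7) became -15.5 with the whole lists, -16.9 ranked by fold enrichment, -15.5 and -10.7 with windows of 1 and 5 kb, and -10.1 and -9.19 in the 2 upper bins. The AP-1 difference (-13.3) became -10.0 with the whole lists and -8.62 and -8.33 in the upper bins. The CTCF difference (8.49) became 4.62 with the whole lists and 3.83, 6.24 and 3.54 in the 3 bins. The median log2 ratio at shared regions (-0.27) was -0.21 with the whole lists and -0.49 on the FPM scale. The cause of these moves was not tested. Below 1 FPM, no set 1 region was left and no value could be given. No paired analysis was possible because each group had 1 list. A summit below 10 to 12 fragments was called in no library, so weaker sites could not be compared at this depth.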

Other observations

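Some loci differed by several regions between the equal-length lists. They were picked after their values were seen, from all protein-coding loci. The septin gene Sept9 held 11 regions with set 1 and 4 with set 2, where TGF-β-treated siControl cells held 6 and untreated cells 3 at the same list length. Pacsin2, a gene of membrane curvature, held 9 and 3, with 7 and 9 in the siControl libraries (TGF-β first). Adgrv1, an adhesion receptor gene, held 5 and 0, and the zinc finger gene Egr2 4 and 0.

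In the other direction, Il34, the gene of a ligand of the CSF1 receptor, held 4 regions with set 1 and 12 with set 2, with 7 and 3 in TGF-β-treated siControl cells and untreated. Zfp395 held 0 and 7, Bach1, a repressor of oxidative stress genes, 0 and 4, and Btbd11 2 and 7. In the whole set 1 list, Il34 held 8, Zfp395 3, Bach1 4 and Btbd11 8 regions, so the Bach1 and Btbd11 differences were absent there.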
